A study of Mus musculus with 17 samples.

Results

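The genes described here are 34 that fold proteins in the endoplasmic reticulum (ER) or belong to the unfolded protein response, the signalling that follows when folding falls behind. They were chosen by name, with earlier results of these data known, and all 34 were found among the 25198 gene symbols of the count table. RNA was sequenced from antral follicles of CD1 mice, 16 days old, that had grown for 8 days in eIVFG, encapsulated in vitro follicle growth, with 3 follicles in each sample. The Tyrphostin group (6 libraries) received 10 µM Tyrphostin-AG1478, an inhibitor of the kinase of the epidermal growth factor receptor, in DMSO together with the ovulatory hormone hCG for 4 h, and the Control group had 11 libraries. The treatment text is the same for every sample, so it is not stated which of the hormone and the vehicle the Control follicles received. The labels give 2 batches: batch 1 held 6 Control libraries beside 3 of the inhibitor, and batch 2 held 5 beside 3. Column names place Control libraries 1 to 3, 4 to 6, 7 and 8, 9 alone, and 10 and 11 in sets. What the libraries of a set share is not stated. Nothing in the labels says that the libraries came from separate animals or cultures. The p-values therefore measure only the spread between these libraries, which may be technical.

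Secreted and membrane proteins enter the ER unfolded, and chaperones such as BiP, calreticulin and the protein disulfide isomerases fold them there. When unfolded proteins build up, the sensors IRE1, PERK and ATF6 act: IRE1 splices the mRNA of the factor XBP1, PERK slows translation and favours the factor ATF4, and ATF6 is cut to release a factor of its own. ATF6 and XBP1 raise chaperones and the genes of ER-associated degradation, which returns failed proteins to the cytosol, while ATF4 raises genes of amino acid supply and, together with CHOP, of stress and cell death. ATF4 also answers to amino acid shortage and other signals that do not begin in the ER. Granulosa cells, the main cells of a follicle, secrete hormones and matrix through this route.

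Promoters of 5 members are shown because the values below turn on them: Asns and Sel1l, which passed the test, Chac1, which passed in 1 batch, Hspa5, the most abundant member, and Herpud1, which holds letters of both arms. Promoter windows were taken from RefSeq (GRCm38.p6), in which 29 of the 34 members had an entry, each with 250 bases before and 50 after the start of the gene. On this build the gene of Asns lies at chr6:7675165-7693209 and that of Sel1l at chr12:91806043-91849157, and the printed stretches lie just outside the genes, upstream of the first exon. Printed are the 250 bases before the start, 5′ to 3′ on the strand of the gene, and capitals mark matches to any of 3 motifs, each searched on both strands. These were the ER stress element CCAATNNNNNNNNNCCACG, the second ER stress element, ATTGG and CCACG separated by 1 base, and the core TGATGNAA of the C/EBP-ATF site that ATF4 binds; the first and second could share their last bases, and the third shares none with them in the sequences shown.
Asns (chr6:7693210-7693459, minus strand): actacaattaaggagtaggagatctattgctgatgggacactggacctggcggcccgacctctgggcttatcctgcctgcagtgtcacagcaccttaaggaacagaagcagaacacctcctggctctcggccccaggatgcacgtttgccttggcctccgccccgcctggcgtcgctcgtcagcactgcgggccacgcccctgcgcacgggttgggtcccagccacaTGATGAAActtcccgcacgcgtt
Sel1l (chr12:91849158-91849407, minus strand): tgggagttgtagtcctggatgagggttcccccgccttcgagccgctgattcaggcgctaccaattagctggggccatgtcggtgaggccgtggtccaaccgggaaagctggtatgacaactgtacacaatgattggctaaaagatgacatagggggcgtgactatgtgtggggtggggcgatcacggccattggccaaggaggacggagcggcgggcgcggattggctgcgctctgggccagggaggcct
Hspa5 (chr2:34771840-34772089, plus strand): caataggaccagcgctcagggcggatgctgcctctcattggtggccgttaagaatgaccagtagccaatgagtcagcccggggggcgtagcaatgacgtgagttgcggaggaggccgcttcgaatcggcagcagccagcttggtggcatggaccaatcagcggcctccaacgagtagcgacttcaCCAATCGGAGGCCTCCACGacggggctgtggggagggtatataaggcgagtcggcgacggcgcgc
Herpud1 (chr8:94386179-94386428, plus strand): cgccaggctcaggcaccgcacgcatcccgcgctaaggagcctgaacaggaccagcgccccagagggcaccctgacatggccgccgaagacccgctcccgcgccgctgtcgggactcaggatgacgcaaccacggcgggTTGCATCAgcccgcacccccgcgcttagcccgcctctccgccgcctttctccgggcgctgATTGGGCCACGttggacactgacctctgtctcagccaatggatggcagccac
Chac1 (chr2:119350992-119351241, plus strand): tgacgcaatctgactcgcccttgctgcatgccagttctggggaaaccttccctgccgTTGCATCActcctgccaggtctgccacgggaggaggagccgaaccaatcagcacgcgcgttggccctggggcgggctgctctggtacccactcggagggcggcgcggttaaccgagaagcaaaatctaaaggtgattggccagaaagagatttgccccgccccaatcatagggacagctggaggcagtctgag
The first element stood in the windows of 9 of 29 members, against 0.119% of all windows in the table, and these were Hspa5, Hsp90b1, Calr, Canx, Pdia6, Dnajc3, Creld2, Syvn1 and Derl3. The second stood in 2, Dnajb11 and Herpud1, against 0.0365% of all windows. The third stood in 4, Asns, Chac1, Trib3 and Herpud1, against 3.97% of all windows. In Asns it began 23 bases before the start. Sel1l matched none, which says only that these letters are not in this window.

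Library totals ran from 1820545 to 8291024 counts, and a floor of 3 counts corresponded to 0.336 to 1.64 CPM (counts divided by the library total, rescaled by TMM factors). The floor covers counting error only. The tissue label was checked against marker genes. All 9 granulosa markers had at least 1 count in some library. Amh, however, had at most 4 counts in any library, and Foxl2 had 0 to 6 in Control libraries. Of 7 tested, 3 were higher with the inhibitor. The summed granulosa level ran from 62380 to 81250 CPM in Control and from 52510 to 77990 CPM in Tyrphostin libraries. Inha held 64.3% of that level in Control libraries, and Inhba most of the rest. The 9 oocyte markers summed to 17.8 to 80.3 CPM and 20.1 to 224 CPM, the 5 endothelial to 8.54 to 88.7 and 8.77 to 32.9 CPM, and the 5 immune to 17.4 to 462 and 18.3 to 855 CPM; in these groups no marker was at 0 in all libraries. The 9 theca and stroma markers summed to 7980 to 18620 CPM in Control and 2930 to 11950 CPM in Tyrphostin libraries, but Star, a steroid transport gene and the 1 marker of 9 tested that was lower, held 93.0% of that level in Control, and without Star the ranges were 266 to 2160 and 273 to 3090 CPM. Their part in the results below was not tested. Control 7 stood apart among the members and in its mitochondrially encoded RNA, which held 0.175% of its counts against 0.781% to 2.83% in the other 16 libraries. In batch 2 this share also differed between the groups, at 0.781%, 1.32% and 0.797% in the Tyrphostin libraries and at 1.74% to 1.94% in the 4 Control libraries other than Control 7.

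Most of the machinery for folding proteins did not pass the test between inhibitor and Control follicles. Of the 34 members 33 passed the filter on low counts, and by edgeR's quasi-likelihood test with batch as a term 1 was higher (Sel1l) and 1 lower (Asns) in Tyrphostin libraries at an adjusted p under 0.05. That is 6.06% of the members tested, where 10.6% of all 9603 genes tested passed, 4.35% higher and 6.25% lower. The median log2 fold change of the members was 0.09, with 20 positive and 13 negative, and that of all genes was 0.00. For 28 of 33 members the 95% interval of the difference lay within a 2-fold change in either direction, as it did for 69.0% of all genes; the other 5 were Asns, Chac1, Trib3, Eif2ak3 and Herpud1. The CPM ranges of the groups overlapped for every tested member, while 1.51% of all genes had no overlap. In follicles, which hold several cell types, fewer cells of a type and less RNA per cell cannot be told apart.

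**Figure D1:**
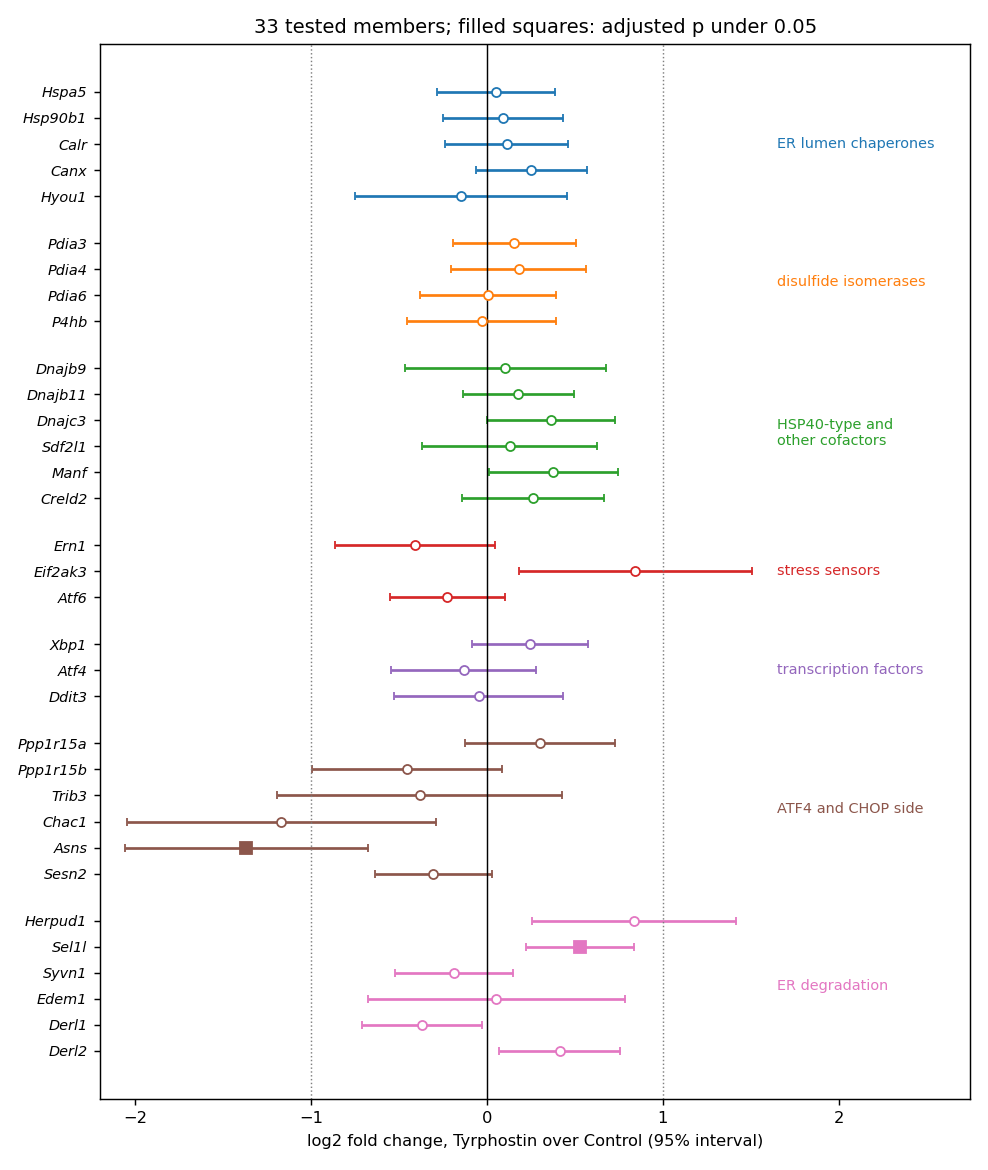
Log2 fold change of the 33 tested members, Tyrphostin over Control, with batch as a term (horizontal axis); points are estimates, lines 95% intervals, colours roles, and dotted lines mark a 2-fold change. Asns at -1.37 and Sel1l at 0.53 are the filled squares, and the intervals of all chaperones and disulfide isomerases stay between the dotted lines.

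The 4 members with the most RNA per kilobase of exon were chaperones and isomerases. Per kilobase of exon, the mean Control level was highest for Hspa5, at 2424 CPM per kb, followed by P4hb at 1301, Hsp90b1 at 633 and Pdia3 at 608 CPM per kb. Derl1, a degradation gene, came next at 477.5, ahead of the chaperones Canx at 183, Calr at 43.5 and Hyou1 at 11.7 CPM per kb. Of the members that passed the filter on low counts, the lowest were Chac1 at 2.35, Trib3 at 1.20 and Eif2ak3 at 0.309 CPM per kb. Derl3, which did not pass it, was at 0.493 CPM per kb. Hspa5 encodes BiP, the chaperone that also holds the sensors inactive, and it alone made 37.5% to 45.2% of the members' counts in a library. All 34 members together took 1.94% to 2.84% of counts in Control and 2.34% to 2.94% in Tyrphostin libraries.

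None of the 5 ER lumen chaperones passed the test. Hspa5 had a lowest, median and highest level of 8561, 9599 and 13837 CPM over the 11 Control libraries, and of 8691, 10934 and 12077 CPM over the 6 Tyrphostin libraries, so the groups overlapped over nearly their whole range. Its fold was 1.04, with a 95% interval from 0.82 to 1.31 (log2 fold change 0.05, SE 0.16; edgeR adjusted p = 0.899). Hsp90b1 (GRP94, which folds integrins and growth factors among others), Calr and Canx (the lectins that hold sugar-bearing proteins) and Hyou1 (a partner of BiP) had log2 fold changes of 0.09 ± 0.16, 0.11 ± 0.17, 0.25 ± 0.15 and -0.15 ± 0.29 (SE). The lowest edgeR adjusted p of the 5 was 0.336, for Canx. Canx reached 624, 1042 and 1585 CPM (lowest, median and highest) with the inhibitor against 507, 833 and 1219 CPM in Control libraries, and 3 of 6 Tyrphostin libraries exceeded every Control library. Hyou1 was the most scattered of them, from 25.2 to 150.1 CPM in Control libraries, and its estimate crossed 0 without Tyrphostin 2.

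The protein disulfide isomerases, which form and shuffle the bonds between cysteines, did not pass either. Pdia3 averaged 1910 CPM in Control libraries (SD 287, n = 11) and 2141 CPM with the inhibitor (SD 504, n = 6). Its log2 fold change was 0.16 ± 0.17 (SE), and those of Pdia4, Pdia6 and P4hb were 0.18 ± 0.19, 0.01 ± 0.19 and -0.03 ± 0.20. P4hb ranged from 2001 to 6773 CPM in Control and from 2759 to 4731 CPM in Tyrphostin libraries. The sign of P4hb turned in 5 of 10 alternative analyses and that of Pdia6 with the omission of single libraries. The widest interval of the 4, that of P4hb, ran from 0.73-fold to 1.31-fold.

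The HSP40-type and other cofactors had 6 positive estimates of 6, and none passed. The log2 fold changes ran from 0.11 (Dnajb9) to 0.38 (Manf); Dnajb9 turned to -0.36 with a replicate block, and Sdf2l1 turned to -0.075 without Tyrphostin 1. Manf, a small secreted protein of the ER lumen, averaged 76.6 CPM in Control libraries (SD 24.7, n = 11) and 98.8 CPM with the inhibitor (SD 16.7, n = 6) (log2 fold change 0.38, SE 0.18; edgeR adjusted p = 0.195). Without Control 7 its edgeR adjusted p was 0.0444. Dnajc3, which brings substrates to BiP, showed a log2 change of 0.37 (SE 0.18; edgeR adjusted p = 0.21), Creld2 of 0.26 ± 0.20, Dnajb11 of 0.18 ± 0.15 and Sdf2l1 of 0.13 ± 0.24.

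Among the 3 sensors, Ern1 (IRE1) and Atf6 had log2 fold changes of -0.41 ± 0.22 and -0.22 ± 0.16 (estimate and SE), with edgeR adjusted p of 0.272 and 0.421. Eif2ak3 (PERK) was near the floor, with 2 to 28 counts in a library. It averaged 1.86 CPM in Control libraries (SD 0.953, n = 11) and 3.50 CPM with the inhibitor (SD 1.26, n = 6), or log2 0.84 (SE 0.32; edgeR adjusted p = 0.0992). Every Control library was exceeded by 3 of the 6 Tyrphostin libraries. Its adjusted p was 0.0447 without Control 2. Messenger levels carry no measure of how active a sensor was.

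The 3 transcription factors did not pass. Xbp1 had a lowest, median and highest level of 263, 337 and 540 CPM in Control and of 336, 406 and 524 CPM in Tyrphostin libraries (log2 fold change 0.24, SE 0.16; edgeR adjusted p = 0.383). Atf4 averaged 373 CPM in Control libraries (SD 114, n = 11) and 340.1 CPM with the inhibitor (SD 75.2, n = 6), and the estimate, log2 -0.13 (SE 0.20; edgeR adjusted p = 0.755), became 0.03 with total-count scaling. Ddit3, which encodes CHOP, was low in both groups, at 10.3 CPM ± 4.37 (SD, n = 11) and 10.1 CPM ± 3.19 (SD, n = 6), and its sign turned in 3 of 10 alternatives. Gene counts do not separate the spliced from the unspliced Xbp1 mRNA, and Atf4 is controlled in large part at translation.

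Asns, the enzyme that makes asparagine and a classic target of ATF4, fell. In batch 1 the lowest, median and highest of 6 Control libraries were 153, 172 and 313 CPM, and the 3 Tyrphostin libraries had 51.4, 83.6 and 57.2 CPM, all below every Control library of that batch. In batch 2 the 5 Control libraries had 159, 98.6, 441, 55.4 and 179 CPM, and the Tyrphostin libraries 86.3, 63.9 and 111 CPM, so that Control 10 lay below all 3. Over all libraries Asns averaged 194 CPM in Control libraries (SD 105, n = 11) and 75.5 CPM with the inhibitor (SD 22.2, n = 6), which is 0.388-fold with a 95% interval from 0.24 to 0.626 (log2 fold change -1.37, SE 0.33; edgeR adjusted p = 0.0102). Within batch 1 the log2 fold change was -1.63 (SE 0.29; edgeR adjusted p = 0.00173) and within batch 2 -1.09 (SE 0.56; edgeR adjusted p = 0.539). The call was kept when any 1 of the 17 libraries was omitted and in 9 of 10 alternatives, with an edgeR adjusted p of 0.0561 when no gene was filtered for low counts.

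**Figure D2:**
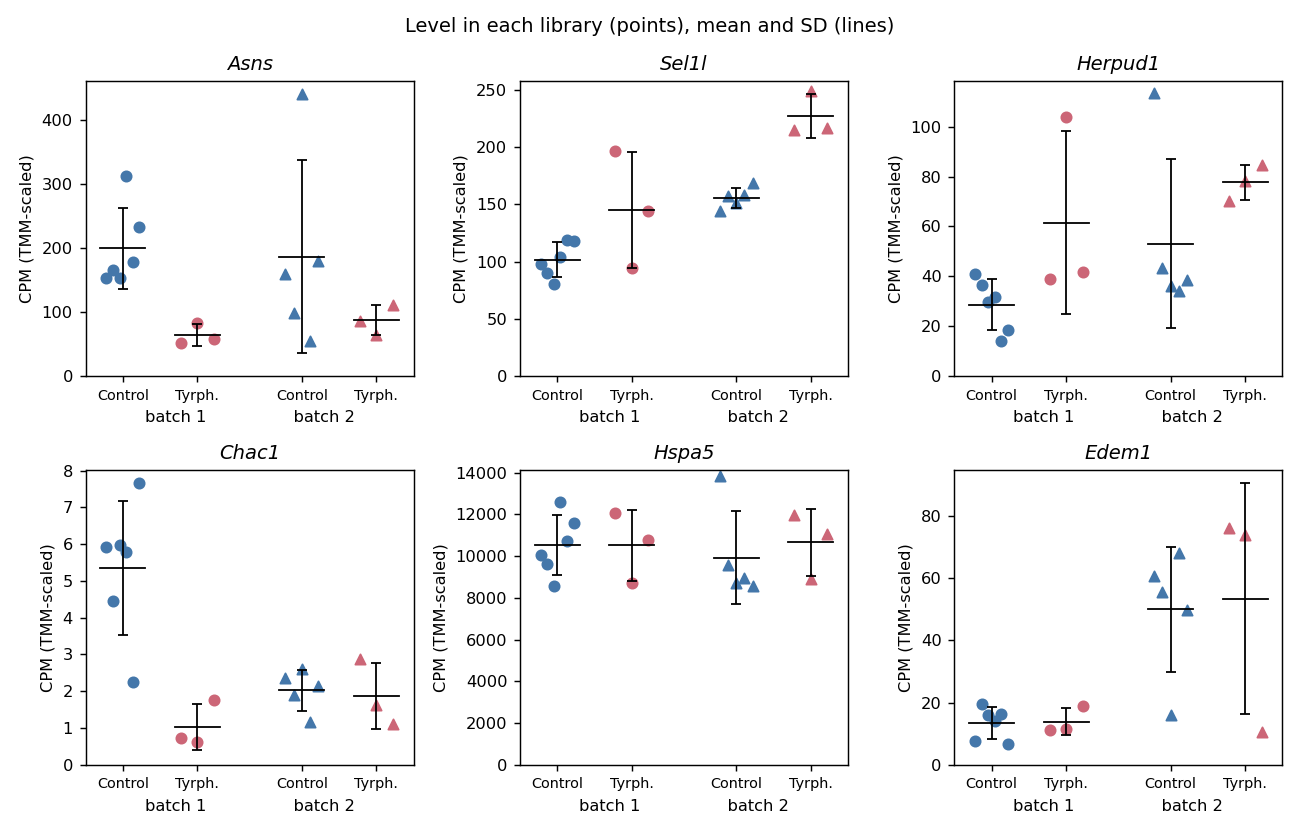
CPM (vertical axis, from 0) of 6 members in each library, split by batch and group; circles are batch 1 and triangles batch 2, blue is Control and red Tyrphostin, and lines give mean and SD. Asns in batch 1 is at most 83.6 CPM in Tyrphostin and at least 153 CPM in Control libraries, while the groups overlap in batch 2; Hspa5 lies at 8561 CPM or above in every library, and Edem1 follows batch except in Control 9 and Tyrphostin 6.

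Chac1, which breaks down glutathione and is another target of ATF4, was called lower in batch 1, on few counts (4 to 22 in a library). In batch 1 the lowest, median and highest of the Control libraries were 2.26, 5.87 and 7.66 CPM, and the Tyrphostin libraries had 0.717, 0.622 and 1.76 CPM, all below every Control library. In batch 2 the Control libraries had 2.36, 1.90, 2.61, 1.15 and 2.13 CPM and the Tyrphostin libraries 2.88, 1.62 and 1.12 CPM, of which 1 lay above every Control library and 1 below. The log2 fold change was -2.36 (SE 0.51; edgeR adjusted p = 0.00826) within batch 1, -0.05 (SE 0.50; edgeR adjusted p = 0.987) within batch 2 and -1.17 (SE 0.42; edgeR adjusted p = 0.0835) over all libraries. The difference between batches had an unadjusted p of 0.00277 and an edgeR adjusted p of 1.00, so it did not pass. In batch 1 the call was lost without Tyrphostin 2, and over all libraries DESeq2 and limma-voom called Chac1, with adjusted p of 0.0499 and 0.0347.

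The other genes of the ATF4 and CHOP side did not pass. Ppp1r15a (GADD34) and Ppp1r15b, the subunits that let translation resume, had log2 fold changes of 0.30 ± 0.21 and -0.45 ± 0.26 (estimate and SE), with edgeR adjusted p of 0.405 and 0.306. Sesn2, a stress sensor upstream of mTORC1, had -0.30 (SE 0.16; edgeR adjusted p = 0.257). Trib3, an inhibitor of AKT and of ATF4, had at most 19 counts in a library and a log2 change of -0.38 ± 0.39 (SE), with an interval from 0.438-fold to 1.34-fold that holds a 2-fold decrease. Of the 6 genes on this side 5 had negative estimates, with a median of -0.42, where 4800 of all 9603 genes had negative ones. Within batch 1, 4 of 5 tested were negative, with a median of -0.69. Within batch 2, 4 of 6 were, with a median of -0.09.

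Sel1l, the scaffold of the main ubiquitin ligase of ER-associated degradation, rose. In batch 1 the lowest, median and highest of the Control libraries were 80.1, 101 and 119 CPM and the Tyrphostin libraries had 196, 94.5 and 145 CPM, with Tyrphostin 2 inside the Control range. In batch 2 the Control libraries had 145, 157, 152, 158 and 168 CPM and the Tyrphostin libraries 215, 249 and 217 CPM, all higher than every Control library. These 3 libraries also had a lower share of mitochondrially encoded RNA than the 4 Control libraries other than Control 7, and its part in the difference was not tested. Sel1l averaged 126 CPM in Control libraries (SD 30.9, n = 11) and 186 CPM with the inhibitor (SD 56.6, n = 6), which is 1.44-fold with a 95% interval from 1.17 to 1.79 (log2 fold change 0.53, SE 0.15; edgeR adjusted p = 0.0232). Within batch 1 and batch 2 the changes were log2 0.52 ± 0.24 and 0.54 ± 0.20 (SE; p of their difference 0.933, unadjusted), and neither passed alone (edgeR adjusted p = 0.209 and 0.324). The call was lost without Tyrphostin 1 (edgeR adjusted p = 0.111) and in 3 of 10 alternatives. Those had an edgeR adjusted p of 0.0977 with Control libraries summed by set, 0.114 without the batch term and 0.127 with a replicate block.

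Herpud1, which joins the same ligase and is among the most stress-responsive of these genes, lay near the threshold. Its Control levels in batch 1 had a lowest, median and highest of 14.1, 30.8 and 41.0 CPM, against 39.0, 104 and 41.8 CPM in the Tyrphostin libraries, of which 1 lay inside the Control range. In batch 2 the Tyrphostin libraries had 70.4, 78.4 and 84.5 CPM, above 4 Control libraries at 33.9 to 43.4 CPM and below Control 7 at 113 CPM. The log2 fold change was 0.84 (SE 0.28; edgeR adjusted p = 0.0588) over all libraries, and 1.06 (edgeR adjusted p = 0.00166) without Control 7. Without Tyrphostin 2 it was 0.52 (edgeR adjusted p = 0.271). Herpud1 was called in 4 of 10 alternatives. The edgeR adjusted p was 0.0474 with upper-quartile and 0.0118 with total-count scaling, and DESeq2 and limma-voom gave adjusted p of 0.0466 and 0.0406.

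The remaining degradation genes did not pass. Syvn1, the ligase that Sel1l holds (HRD1), showed a log2 change of -0.19 (SE 0.16; edgeR adjusted p = 0.537), opposite in sign to its partner. The change of Syvn1 was -0.01 ± 0.25 (SE) within batch 1 and -0.38 ± 0.20 within batch 2. In batch 2 its Tyrphostin libraries had 25.7, 25.9 and 22.4 CPM, below every Control library, while Tyrphostin 2 lay above every one. Of the derlins, which help move proteins out of the ER, Derl1 had -0.37 (SE 0.16; edgeR adjusted p = 0.17) and Derl2 0.41 (SE 0.17; edgeR adjusted p = 0.121). Derl1 had a lowest, median and highest level of 1072, 1601 and 1958 CPM in Control libraries and of 908, 1127 and 1636 CPM with the inhibitor, where 3 of 6 lay below every Control library; Derl2 passed with total-count scaling (edgeR adjusted p = 0.0314). Derl3 was left out by the filter, with 0 to 21 counts in a library. Edem1, which helps send failed glycoproteins to degradation, showed a log2 change of 0.05 ± 0.35 (SE).

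The effect was also computed within each batch, since batches share no libraries. Within batch 1, 2 of 32 members tested were called, both lower (Asns and Chac1), where 6.73% of 9423 genes were called, 3.79% lower. Within batch 2, edgeR called 0 of 33 members, where 0.621% of 9830 genes were called, 0.427% lower. An edgeR unadjusted p under 0.05 was found there for 1 member and for 10.7% of all genes. Without Control 7 Herpud1 was called within batch 2, and the genes called numbered 221, against 61. For the difference between batches edgeR called 0 members and 0.0% of all genes, and 1 member, Chac1, had an unadjusted p under 0.05, as did 3.56% of all genes.

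**Figure D3:**
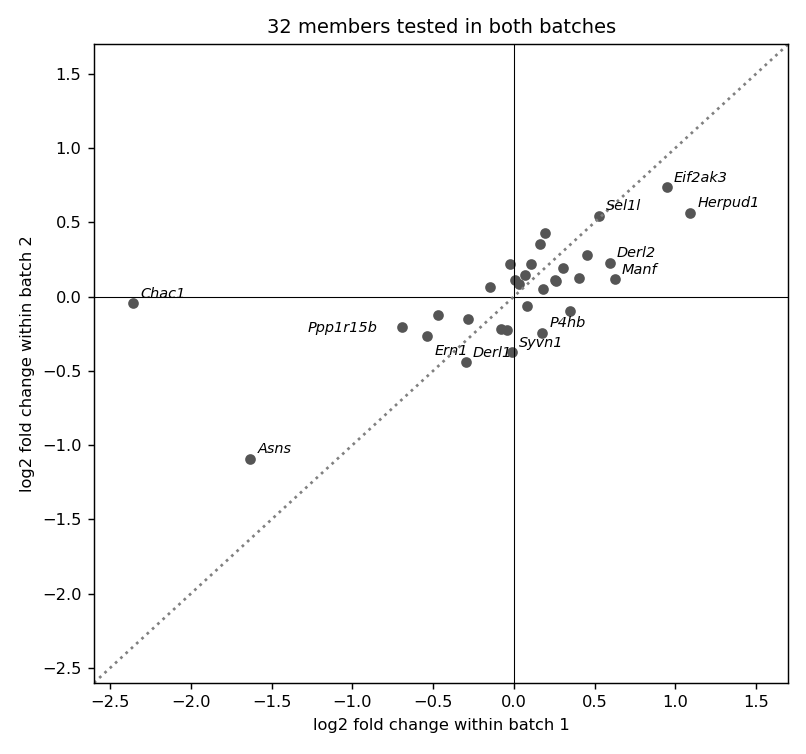
Log2 fold change within batch 1 (horizontal) against batch 2 (vertical) for the 32 members tested in both; the dotted line marks equal values. Asns and Sel1l lie to one side of 0 in both batches, while Chac1 is at -2.36 in batch 1 and -0.05 in batch 2.

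Control libraries differed between the batches in 4 members. Of 30 members tested among the 11 Control libraries, 3 were higher (Edem1, Canx and Sel1l) and 1 lower (Syvn1) in batch 2, or 13.3%, where 14.0% of 6680 genes were called, 7.26% higher and 6.77% lower. Edem1 averaged 13.4 CPM ± 5.21 (SD, n = 6) in batch 1 and 50.04 CPM ± 20.2 (SD, n = 5) in batch 2 (log2 difference 1.92, SE 0.34; edgeR adjusted p = 0.002). The 5 Control libraries of batch 2 had 60.9, 55.5, 16.1, 68.0 and 49.7 CPM, so Control 9 stayed at the level of batch 1, as did Tyrphostin 6 at 10.4 CPM against 76.1 and 73.9 CPM in Tyrphostin 4 and 5. Canx was at 644 CPM in batch 1 (SD 139, n = 6) against 1119 CPM in batch 2 (SD 76.8, n = 5), which differ by log2 0.83 (SE 0.19; edgeR adjusted p = 0.0108), Sel1l by 0.65 ± 0.16 (edgeR adjusted p = 0.0156) and Syvn1 by -0.68 ± 0.18 (edgeR adjusted p = 0.019). Without Control 6, or without Control 9, 7 members were called, and with total-count scaling 10 were, Syvn1 not among them. Calls over all genes also moved, from 637 to 1025 over the omissions of 1 Control library. These member counts are therefore not read as a result about the members.

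**Figure D4:**
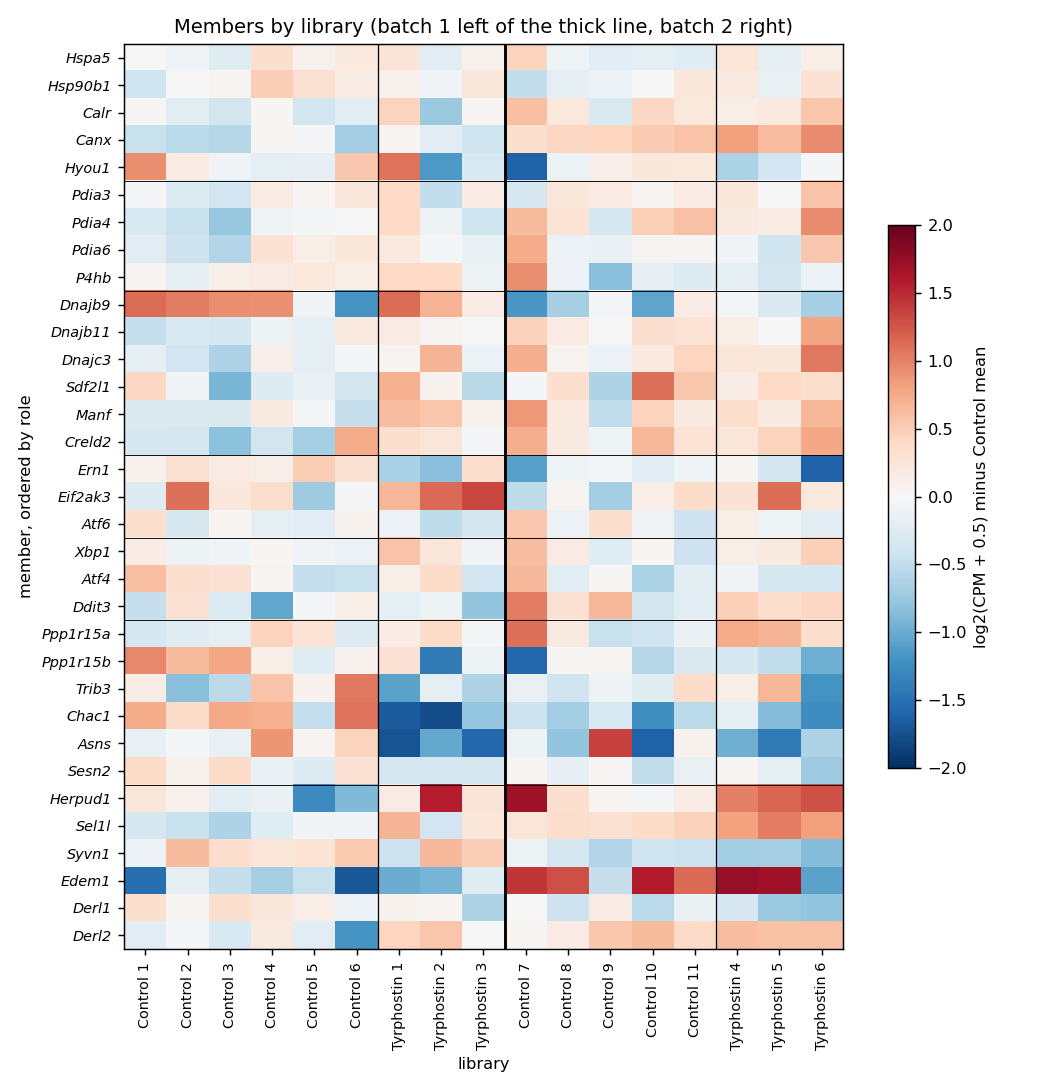
log2(CPM + 0.5) of each tested member in each library minus the mean of the 11 Control libraries; red is higher and blue lower, rows are members ordered by role and columns libraries, with thin vertical lines between groups and a thick line between batches. Control 7 is red for the 14 members in which it is the highest Control library. It is blue for Hyou1, Ern1, Ppp1r15b and Dnajb9, among others. Edem1 is blue to white in batch 1 and red in most of batch 2.

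Among Control libraries 1 was often at an extreme. Control 7 was the highest of the 11 for 14 of 33 members: Hspa5, Calr, Pdia4, Pdia6, P4hb, Dnajb11, Dnajc3, Manf, Atf6, Xbp1, Atf4, Ddit3, Ppp1r15a and Herpud1. No other Control library was highest for more than 4. It was the lowest for 4. This is the library with 0.175% of its counts in mitochondrially encoded RNA, and the part of RNA quality in these levels was not tested. Without it 4 members were called in place of 2, Manf and Herpud1 having joined Asns and Sel1l. Calls over all genes rose as well, from 1018 to 1314, and the higher ones among them from 418 to 593.

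Other genes of the ER and of the stress response were read from 4 lists that hold no members, 93 genes of which 89 were tested. These lists too were chosen with earlier results of these data known, so the shares called in them are a description only. Of 13 other lumenal folding enzymes tested (14 listed), 1 was lower, the thiol oxidoreductase Tmx1 at -0.80 (SE 0.25; edgeR adjusted p = 0.0441), a call lost under omission of any 1 of 11 libraries among the 17. Of 24 genes of glycoprotein quality control and degradation, 2 were higher: Edem2, which trims mannose from failed glycoproteins, at 1.01 ± 0.21 (edgeR adjusted p = 0.00251), and the ER ubiquitin ligase Rnf139 at 0.67 ± 0.19 (edgeR adjusted p = 0.0254). Of 20 genes for entry into the ER and glycosylation, 1 was higher, Ssr3 of the translocon-associated complex, at 0.69 ± 0.19 (edgeR adjusted p = 0.0193). The call of Rnf139 was lost without Tyrphostin 2, 4 or 6 and that of Ssr3 without Tyrphostin 1 or 6, and each was lost in 3 of 10 alternatives. That of Edem2 was kept in all 17 omissions but lost without the batch term (edgeR adjusted p = 0.0738). Within batch 2 Edem2 did not pass, at 0.72 ± 0.35 (edgeR adjusted p = 0.499). Control libraries of batch 2 were higher in Edem2 than those of batch 1, by log2 1.26 ± 0.23 (edgeR adjusted p = 0.00215). The shares called in these 3 lists, 7.69%, 8.33% and 5.0%, were below the 10.6% of all genes, and the medians were 0.21, -0.02 and 0.16.

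The last list, other stress regulators and ATF4 targets, had 12 lower and 1 higher of 32 tested (35 listed), or 40.6% called, and its median log2 fold change was -0.30, where 10.6% of all genes were called and the median of all was 0.00. Nupr1, a stress-induced chromatin protein, had a lowest and highest level of 251 and 720 CPM in Control and of 71.4 and 166 CPM in Tyrphostin libraries, with no overlap (log2 fold change -1.65, SE 0.25; edgeR adjusted p = 0.000117). Vldlr, a lipoprotein receptor, averaged 324 CPM (SD 186, n = 11) in Control libraries and 92.6 CPM (SD 35.9, n = 6) with the inhibitor, or log2 -1.82 (SE 0.31; edgeR adjusted p = 0.000419). Cth, which makes cysteine, averaged 17.7 CPM (SD 4.20, n = 11) in Control libraries and 8.19 CPM (SD 1.16, n = 6) with the inhibitor, or log2 -1.10 (SE 0.19; edgeR adjusted p = 0.000383). The other 9 that fell, listed after their values were seen, were the serine and one-carbon enzymes Phgdh (-1.41), Psat1 (-1.05), Shmt2 (-1.04) and Mthfd2 (-0.81), the cystine transporter Slc7a11 (-1.14), the translation inhibitor Eif4ebp1 (-0.85) and the tRNA synthetases Cars (-0.73), Gars (-0.69) and Nars (-0.65). The 1 that rose was Creb3l2 (0.68), a membrane-bound factor of the secretory pathway. Within batch 1, 10 of 31 genes of the list were lower, where 3.79% of all genes were. Within batch 2 edgeR called 0 of 33, with 7 at an unadjusted p under 0.05 (21.2%), where 0.621% of all genes were called and 10.7% had an unadjusted p under 0.05. In the promoter windows the ATF4 core TGATGNAA stood in 4 of the 8 lower genes with an entry (Nupr1, Gars, Slc7a11 and Vldlr). It stood in 3 of the 19 others with an entry, as a description. The others were drawn from all listed genes not called lower, which include the untested ones and Creb3l2. The groups had no overlap for 4 of the 89 genes of all lists (Nupr1, Vldlr, Cth and Shmt2), and for 1.51% of all genes.

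**Figure D5:**
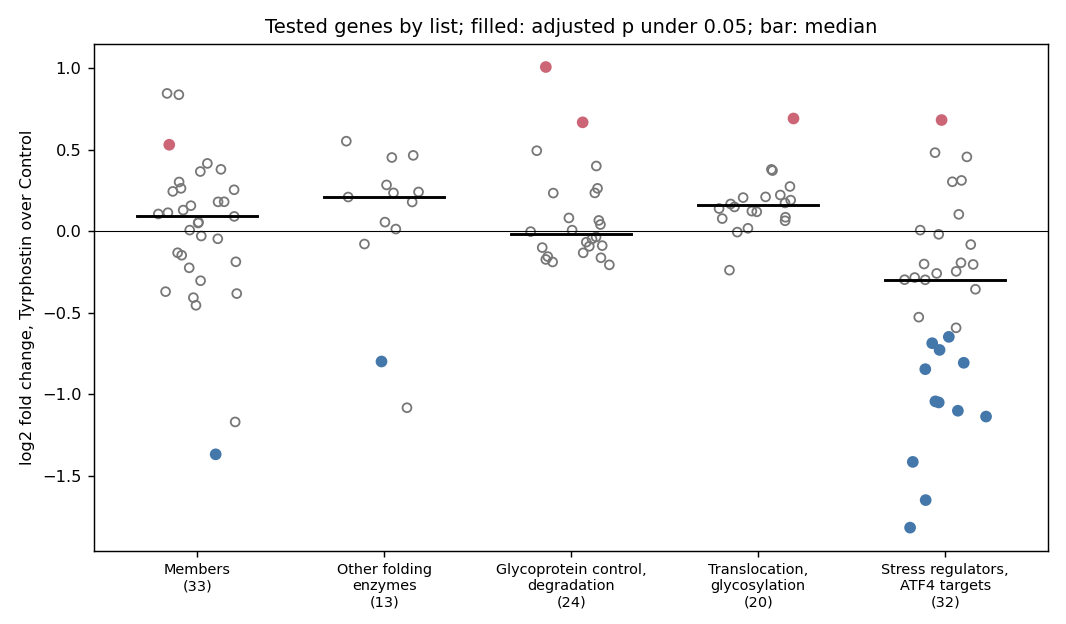
Log2 fold change, Tyrphostin over Control (vertical axis), of the tested genes in each list, with the number tested in brackets; filled points passed the test (red higher, blue lower) and bars are medians. Members centre at 0.09, and 12 of the 13 filled points of the stress regulator and ATF4 target list lie below 0.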

How the data were processed

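Raw counts, as the authors deposited them, give 1 whole number for each gene symbol in each of 17 libraries, made by Smart-Seq2 (full-length cDNA, no molecular identifiers) per the labels' protocols. STAR, HTSeq and GRCm38 are named per the submitters' processing notes; versions, annotation and strand setting are not given in the sources used here, so reads of overlapping or near-identical genes may be split. Columns were matched by the names in the labels.

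Counts were fitted over the whole table with edgeR 4.0.16 (R 4.3.3): filterByExpr by group, TMM scaling, robust glmQLFit, quasi-likelihood F test, Benjamini-Hochberg adjustment, threshold 0.05, batch as a term over 17 libraries (9603 genes). The SE is the log2 fold change divided by the square root of F. Levels per kb use the union of GENCODE M21 exons. Limma 3.58.1 and DESeq2 1.42.0 were alternatives. The code was tested on simulated data. All 31 pairs of libraries of one group and batch differed by more than counting noise (chi-square per degree of freedom 11.8 to 84.1).

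All members were named; of the other lists, up to 3 called genes of lowest p. Members and lists were chosen with earlier results of these data known.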

Additional observations from a re-analysis of the deposited data

Results flagged for a closer look

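Each tested member was searched in 3 groups of libraries (Control of batch 1, Control of batch 2, Tyrphostin) for 1 library standing far from the rest in log2(CPM + 0.5). Of 99 such groups 10 had one, where chance gives about 4.95. In batch 2, Control 7 was far above the other Control libraries for Hspa5 (13800 CPM against 8570 to 9560), Pdia6 (1060 against 580 to 662) and Herpud1 (113 against 33.9 to 43.4). The same library was far below them for Hyou1 (25.2 CPM against 72.0 to 91.2) and Ern1 (34.6 against 64.0 to 73.0). Edem1 in Control 9 was at 16.1 CPM against 49.7 to 68.0. In batch 1, Control 6, the shallowest library, had 88.1 CPM of Creld2 against 29.6 to 42.1 and 12.6 CPM of Derl2 against 23.3 to 33.1. Among Tyrphostin libraries, Dnajb11 reached 366 CPM in Tyrphostin 6 against 209 to 235, and Derl2 was at 29.3 CPM in Tyrphostin 3 against 39.3 to 44.6.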

How the results depend on the processing

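In the 10 alternatives run over all libraries, 28 of 33 members kept their sign and 27 kept their side of the threshold. The sign turned for P4hb (0.12 with total counts, 0.015 with limma-voom, 0.031 without a filter, 0.070 with Control libraries summed by set, 0.25 with the replicate block), Ddit3 (0.10, 0.055 and 0.0064 with total counts, limma-voom and no filter), Atf4 (0.031 with total counts), Edem1 (-0.14 with limma-voom, -0.025 with the replicate block) and Dnajb9 (-0.36 with the block). Members called, 2 in the analysis reported, were 4 with total-count scaling (3 of them higher), DESeq2 or limma-voom, and 1 without a filter, without the batch term or with Control libraries summed by set. With upper-quartile scaling 3 were called, Herpud1 among them. All genes called, 1018 (41.1% higher), were 619 without the batch term; total counts gave 715 higher calls and 396 lower ones and shifted the median log2 fold change over all genes to 0.15, and DESeq2, fitted to unfiltered genes, shifted it to -0.12. The 17 calls among the other ER genes were 9 without the batch term and 11 with Control libraries summed by set. Within batch 1, 4 members were called with total counts. Within batch 2, 222 genes were called without a filter, against 61. The interaction then called 79 genes. Between Control batches 10 members were called with total counts, against 4. The cause of these differences was not tested.

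Leaving out each library gave 708 to 1314 genes, 1 (without Tyrphostin 1) to 4 (without Control 7) members and 10 to 20 other ER genes called (10 without Tyrphostin 1 or 6 and 11 without Tyrphostin 3); 394 to 687 genes and 1 to 3 members within batch 1, both lowest without Tyrphostin 2; 11 (without Tyrphostin 6) to 221 (without Control 7) genes and 0 to 1 members within batch 2, where each of the 8 libraries moved the count by over 1.5 times; 0 to 0 for the interaction; and 637 to 1025 genes and 3 to 7 members between Control batches. The sign of 8 members turned in at least 1 of these fits: Calr (-0.028 to 0.23), Hyou1 (-0.52 to 0.022), Pdia6 (-0.097 to 0.11), P4hb (-0.098 to 0.13), Dnajb9 (-0.00095 to 0.21), Sdf2l1 (-0.075 to 0.27), Ddit3 (-0.11 to 0.064) and Edem1 (-0.099 to 0.28). The title numbers 1 to 6 occur in both groups, but those of 4 to 6 cross batches, and libraries of one number correlated in their deviations from group means with r from -0.133 to 0.469 (0.0312 to 0.323 from means by group and batch). The labels give no shared source for a number and these r were not all clearly above 0, so the numbers were not taken to pair the samples; whether some share a source is not known. With the number as a replicate block 624 genes, 3 members (Asns, Chac1 and Ppp1r15b) and 11 other ER genes were called. Within batch 1 the block gave 4 members called. Over both batches, Sel1l (edgeR adjusted p = 0.127), Rnf139 (0.603), Ssr3 (0.383), Tmx1 (0.142) and Cth (0.0603) were among those not called with the block. As a hint from the data, 5 of 6 Tyrphostin libraries correlated best with their own number among Control 1 to 6, the only ones compared. These Control libraries are all of batch 1, so Tyrphostin 4 to 6 were not compared with Control libraries of their own batch. For numbers 4 and 6 that best r was 0.0128 and -0.0632. Members with under 30 counts in every library (Derl3, Trib3, Chac1 and Eif2ak3) are limited by depth.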
